A study of Mus musculus with 12 samples.

Results

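Interferon signaling in B cells ends on a small set of transcription factors, and 9 genes of this set were examined: the interferon regulatory factors Irf1, Irf2, Irf3, Irf5, Irf7 and Irf9, the signal transducers Stat2 and Stat3, and Socs1, an inhibitor of the kinases that activate STAT proteins. They were chosen by symbol, with the transcript of highest mean kept for each, out of 24063 genes measured. All 9 reached an RPKM (reads per kilobase of transcript, here per 10000000 assigned reads) of 1 in 3 or more libraries and were among the 13704 genes tested.

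Interferons bind receptors at the cell surface, and the JAK kinases attached to these receptors phosphorylate STAT proteins. Type I interferon drives STAT2 into a complex with IRF9 that binds interferon-stimulated response elements (ISRE), while interferon gamma drives STAT dimers to gamma-activated sites (GAS), among them the one of Irf1. IRF3, IRF5 and IRF7 lie dormant until nucleic acid sensors or Toll-like receptors activate them, and miR-146a is known as a negative regulator of adaptors on the Toll-like receptor route.

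RNA of sorted splenic B cells from C57BL/6 mice was sequenced in 12 libraries, 3 in each of 4 groups. Naive B cells were B220+ cells of unimmunized WT mice and of B-KO mice, in which CD21-cre deletes a floxed miR-146a allele. The paper describes this deletion as specific to mature B cells. GC B cells were B220+PNA+GL7+ cells of WT and B-KO mice taken 14 days after intraperitoneal injection of sheep red blood cells (SRBC). Mice were 8 to 10 weeks old as the study's general rule, and the labels give no age for the sequenced animals. Immunization and sort gate therefore changed together between naive and GC B cells and cannot be told apart, and in bulk samples fewer cells of a type and less RNA per cell cannot be told apart either.

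The libraries held 22945634 to 39118224 transcript-assigned reads, and the 9 genes had between 133 reads (Socs1) and 7031 reads (Irf5) in a library. Summed GC B cell markers (Bcl6, Fas, Mef2b, S1pr2) stood at 3524 to 4424 RPKM in GC libraries and at 244 to 804 RPKM in naive ones. Among naive libraries the highest sums were those of B-KO replicates 1 and 2, at 804 and 467 RPKM. WT GC replicate 3 and B-KO GC replicates 1 and 2 held Y-linked transcripts (sums of 1175, 850 and 671 RPKM), whereas the other 9 libraries had at most 0.337 RPKM. The same 3 libraries stood apart in 7 immediate early genes (5163, 1636 and 4976 RPKM against 654 to 712 RPKM in the other GC libraries). They did so again in 8 detected macrophage and myeloid markers, none of which was at 0 (403, 593 and 475 RPKM against 155 to 207 RPKM). Of 4 naive B cell markers (Fcer2a, Ccr7, Klf2, Cr2), the sum was again highest in these 3 libraries (2463, 2014 and 2744 RPKM against 1551 to 1667 RPKM in the other GC libraries and 5190.3 to 6823 RPKM in naive ones). In WT GC replicate 3 and B-KO GC replicate 2 this came with Ccr7 at 301 and 615 RPKM against 53.9 to 73.6 RPKM, and in B-KO GC replicate 1 with Cr2 at 963 RPKM. Mir146, the targeted gene, had at most 4 reads in any library. Poly-A sequencing does not capture a processed miRNA, so these reads gave no check of the deletion.

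The miRNA whose loss defines the B-KO groups is shown first, since its seed decides which transcripts it can pair with. Mature miR-146a-5p comes from the minus strand of chr11:43374435-43374456 (GRCm38.p6, RefSeq), and the capitals mark its seed, bases 2 to 8.
mmu-miR-146a-5p: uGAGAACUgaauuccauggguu
The complement of this seed, 7 bases long, was looked for in 3′ UTRs of GENCODE M21, with the longest UTR kept where a gene had several. It occurred in 11.15% of 21028 genes and in 1 of the 9, Stat2. The Stat2 match began at position 474 of a UTR of 1476 bases and lay at chr10:128291832-128291854 on the plus strand (GRCm38), with the matching bases in capitals below.
Stat2 site: atacctgggcccttcAGTTCTCt
A match is a description of letters and not a measured site.

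Promoters of 4 members that held an interferon motif are printed with the motif in capitals, because these are the elements through which the pathway is known to act back on its own factors. Each window runs from 250 bases before to 50 bases after the RefSeq start site (GRCm38.p6). The ISRE core was searched as GAAA, any 2 bases and GAAA, and on the other strand as TTTC, any 2 bases and TTTC. GAS was searched as TTCNNNGAA, which reads alike on both strands. Of 32851 promoters of the same length, 3.44% held the ISRE core and 8.30% held GAS.
Irf1, plus strand, chr11:53769764-53770063, GAS: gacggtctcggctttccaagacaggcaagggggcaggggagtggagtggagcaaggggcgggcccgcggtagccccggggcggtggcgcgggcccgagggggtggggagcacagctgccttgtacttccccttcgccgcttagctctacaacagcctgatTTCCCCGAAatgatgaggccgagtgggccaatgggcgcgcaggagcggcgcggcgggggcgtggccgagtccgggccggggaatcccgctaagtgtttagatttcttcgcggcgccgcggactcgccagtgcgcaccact
Irf2, plus strand, chr8:46739495-46739794, ISRE core then GAS: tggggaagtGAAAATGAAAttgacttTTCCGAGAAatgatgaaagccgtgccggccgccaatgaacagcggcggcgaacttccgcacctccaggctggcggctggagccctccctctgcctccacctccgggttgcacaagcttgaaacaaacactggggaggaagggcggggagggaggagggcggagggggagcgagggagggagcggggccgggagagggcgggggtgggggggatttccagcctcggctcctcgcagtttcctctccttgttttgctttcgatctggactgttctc
Stat2, plus strand, chr10:128270248-128270547, ISRE core: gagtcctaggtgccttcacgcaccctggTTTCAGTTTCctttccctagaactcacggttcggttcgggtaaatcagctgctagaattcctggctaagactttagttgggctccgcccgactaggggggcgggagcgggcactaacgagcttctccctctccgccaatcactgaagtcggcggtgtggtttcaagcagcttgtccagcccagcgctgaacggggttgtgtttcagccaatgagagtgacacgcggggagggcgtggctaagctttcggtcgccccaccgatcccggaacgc
Socs1, minus strand, chr16:10785487-10785786, 2 overlapping ISRE cores: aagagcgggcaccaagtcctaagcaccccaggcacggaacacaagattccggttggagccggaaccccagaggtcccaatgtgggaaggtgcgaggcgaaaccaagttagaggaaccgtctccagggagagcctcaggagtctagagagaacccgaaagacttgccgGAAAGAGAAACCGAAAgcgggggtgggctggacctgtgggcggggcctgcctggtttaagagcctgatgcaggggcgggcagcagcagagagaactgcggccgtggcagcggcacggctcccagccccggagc
In Irf1 the GAS began 90 bases before the start site, and in Socs1 the overlapping ISRE cores together spanned bases 83 to 68 before it. All 9 genes matched a promoter, 11 in all, and the windows of Irf3, Irf5, Irf7, Irf9 and Stat3 and the other Irf1 window held neither motif in these letters.

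RPKM is a level per transcript length, so levels can be set side by side between genes. In WT naive B cells Irf5 stood highest at 887 ± 34.6 RPKM (SD, n = 3), followed by Irf1 at 841 ± 54.2 RPKM, and the ranges of these 2 genes overlapped. Irf9 at 580 ± 22.6 RPKM, Irf3 at 528 ± 21.9 RPKM and Irf2 at 466 ± 36.4 RPKM came next without overlap between neighbors. Stat2 (314 ± 26.1 RPKM) and Stat3 (312 ± 25.3 RPKM) did not differ beyond their spread, and Irf7 (229 ± 27.1 RPKM) and Socs1 (42.3 ± 2.02 RPKM) were lowest. In WT GC B cells Irf5 remained highest at 775 ± 57.7 RPKM, while Irf1 and Irf9 stood at ranks 5 and 7, at 296 ± 84.5 and 202 ± 17.0 RPKM. From Stat2 (215 ± 19.4 RPKM) down to Socs1 (91.9 ± 14.99 RPKM) each gene overlapped with the next in WT GC B cells. In B-KO GC B cells Irf1 was second again at 566 ± 189 RPKM, a spread so wide that it overlapped with both Irf5 and Irf3.

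**Figure D1:**
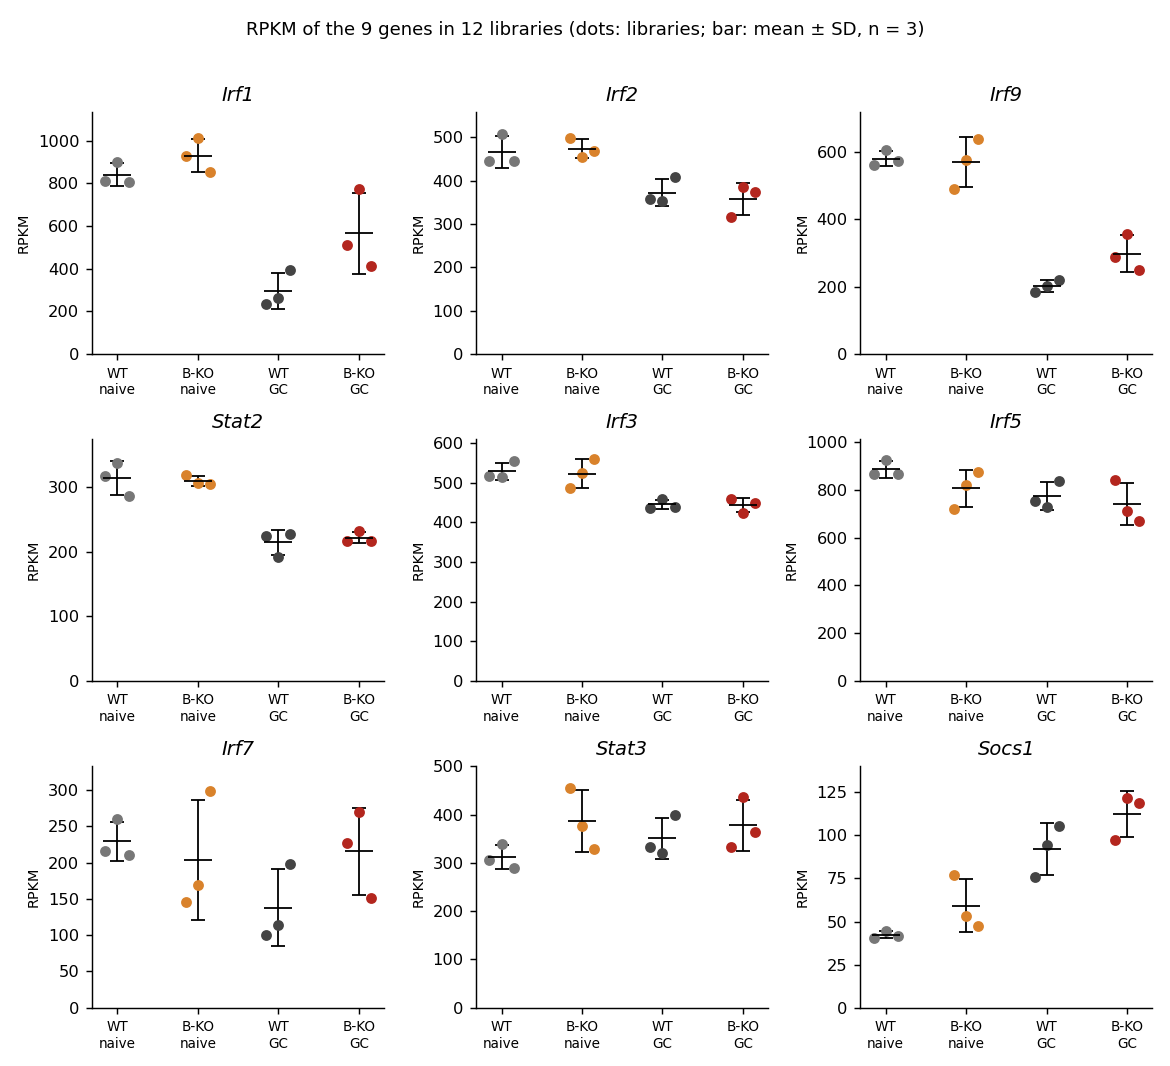
RPKM of each of the 9 genes (y axis, from 0) in the 12 libraries by group (x axis); dots are libraries and bars are the mean ± SD of 3 libraries. Irf1 and Irf9 lay lower in every GC library than in any naive library. Socs1 lay higher in GC B cells than in naive B cells of the same genotype. From naive to GC B cells in WT, Irf5 and Stat3 changed least.

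GC and naive B cells were compared first, within each genotype. In WT, Irf1, Irf2, Irf3, Irf7, Irf9 and Stat2 fell and Socs1 rose in GC B cells at an adjusted p under 0.05 (limma across all genes), that is 6 members lower and 1 higher. Across all genes tested 30.2% were called lower and 31.7% higher. In B-KO mice 5 fell, with Irf7 no longer called, and Socs1 rose, against 27.5% of all genes called lower and 30% higher. The median log2 change of the 9 genes was -0.32 in WT and -0.23 in B-KO, beside 0.01 and 0.02 over all genes. The 3 libraries of each group did not overlap for 8 members in WT and for 6 in B-KO, where 67.3% and 64.1% of all genes showed the same. The naive gate was B220+ alone, and markers of other cells that it can hold were higher there. The 5 NK cell markers summed to 82.6 to 302 RPKM in naive and 10.1 to 54.2 RPKM in GC libraries, and Siglech, a defining marker of plasmacytoid dendritic cells, stood at 53.2 to 134 RPKM against 2.01 to 4.96 RPKM. All 5 plasmacytoid markers summed to 136 to 244 RPKM in naive and 79.2 to 183 RPKM in GC libraries, where Pacsin1 alone was higher. None of these markers was at 0 throughout a group. The part of such cells in the falls of the members, of Irf7 in particular, and of Tlr7 and Stat4 given further on was not tested. Both comparisons rest on separate libraries, and fold changes are given on the scale of log2(RPKM + 1).

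**Figure D2:**
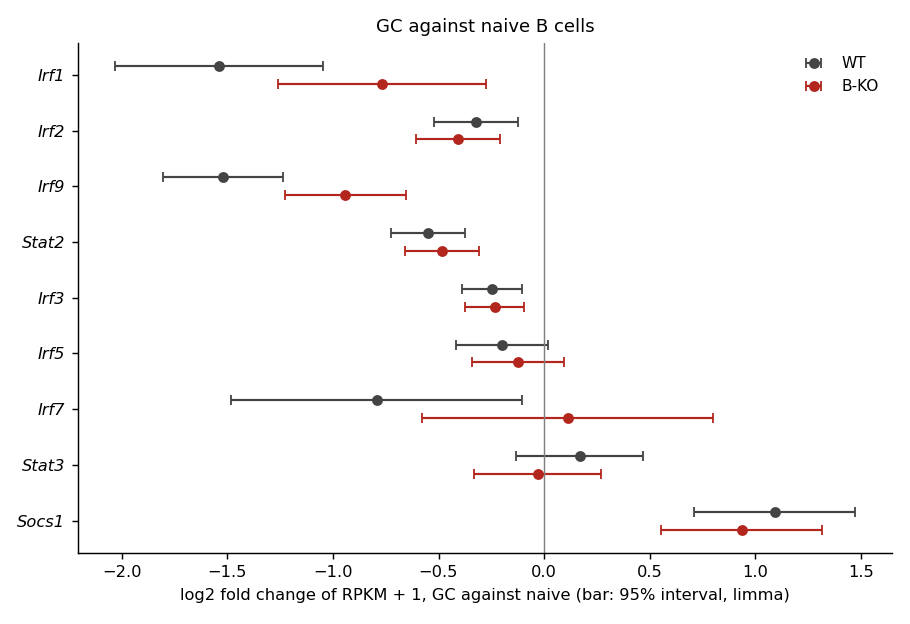
Log2 fold change of RPKM + 1 in GC against naive B cells (x axis) for the 9 genes (y axis) in WT and B-KO; points are limma estimates and bars their 95% intervals. Irf1 and Irf9 had the lowest values in both genotypes, at -1.54 and -1.52 in WT, and Socs1 the highest, at 1.09 in WT and 0.94 in B-KO.

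Irf1 encodes an activator that interferon gamma induces and that switches on antigen presentation and GTPase genes (RefSeq transcript NM_008390, mm10 chr11:53770014-53777324, plus strand). It measured 811, 903 and 807 RPKM in WT naive libraries and 928, 1013 and 853 RPKM in B-KO naive libraries. In WT GC B cells the values were 233, 261 and 392 RPKM, and in B-KO GC B cells 509, 776 and 412 RPKM. Every GC library lay below every naive library, and within GC B cells every B-KO library lay above every WT library. Irf1 fell 2.91-fold from naive to GC B cells in WT (log2 change -1.54, SE 0.22, limma adjusted p = 0.000139) and 1.70-fold in B-KO (log2 change -0.77, SE 0.22, adjusted p = 0.0125). The latter call was lost without B-KO GC replicate 3 (log2 change -0.56, adjusted p = 0.0532). B-KO against WT in GC B cells gave a 1.89-fold higher level (log2 0.92, 95% interval 0.43 to 1.41), which did not pass adjustment over all genes (limma adjusted p = 0.517). In naive B cells the difference was 0.15 on the log2 scale, with an interval of -0.35 to 0.64. Both intervals rest on a spread pooled over the 4 groups. The SD of Irf1 was 28.6% and 33.3% of the mean in WT and B-KO GC B cells. In WT and B-KO naive B cells it was 6.45% and 8.55%, so the pooled spread understates that among GC libraries. An antisense gene, Gm17334, overlaps 135 exonic bases of Irf1 and could not be separated from it, since reads of both strands were counted.

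Irf2 encodes a factor that binds the same elements as IRF1 and is known mainly as its antagonist (NM_008391, mm10 chr8:46739745-46847458, plus strand). Its naive levels were 445, 508 and 445 RPKM in WT and 499, 455 and 469 RPKM in B-KO. Its GC levels were 357, 352 and 408 RPKM in WT and 317, 385 and 373 RPKM in B-KO. Genotypes overlapped in both cell types, while GC libraries lay below naive ones. The fall was 1.25-fold in WT (log2 -0.32, SE 0.09, limma adjusted p = 0.00924) and 1.33-fold in B-KO (log2 -0.41, SE 0.09, adjusted p = 0.00272). The genotype difference in GC B cells had an interval of -0.26 to 0.14 on the log2 scale. In WT GC B cells the mean of Irf1 (296 RPKM) was below that of Irf2 (372 RPKM) and in B-KO GC B cells the order was the opposite (566 against 358 RPKM).

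Irf9 encodes the DNA-binding partner of STAT2 in the ISRE complex (NM_001159418, mm10 chr14:55604579-55610030, plus strand). Its levels were 561, 605 and 574 RPKM in WT naive libraries and 491, 577 and 639 RPKM in B-KO naive libraries. In GC B cells they were 185, 201 and 219 RPKM in WT and 287, 357 and 248 RPKM in B-KO. The naive groups overlapped, and the GC groups did not, with all B-KO libraries higher. From naive to GC B cells Irf9 fell 2.87-fold in WT (log2 -1.52, SE 0.13, limma adjusted p = 4.73e-06) and 1.92-fold in B-KO (log2 -0.94, SE 0.13, adjusted p = 0.000134). B-KO GC B cells held 1.46-fold more Irf9 than WT GC B cells (log2 0.54, 95% interval 0.26 to 0.83), again short of the threshold after adjustment (limma adjusted p = 0.517). The difference in naive B cells was -0.04 with an interval of -0.32 to 0.25. These intervals also rest on the pooled spread. The SD of Irf9 was 8.44% and 18.5% of the mean in WT and B-KO GC B cells, and 3.89% and 13.1% in WT and B-KO naive B cells.

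Stat2 encodes the transducer that carries the activating domain of this complex (NM_019963, mm10 chr10:128270576-128292849, plus strand). It measured 318, 338 and 286 RPKM in WT naive and 319, 307 and 305 RPKM in B-KO naive libraries. Its GC values were 225, 192 and 227 RPKM in WT and 218, 232 and 216 RPKM in B-KO. Genotypes overlapped throughout, and the cell types did not. Stat2 fell 1.46-fold in WT (log2 -0.55, SE 0.08, limma adjusted p = 0.000139) and 1.40-fold in B-KO (log2 -0.48, SE 0.08, adjusted p = 0.000426). Although it was the member with a match to the miR-146a seed, its genotype difference was -0.02 in naive B cells (interval -0.19 to 0.16) and 0.05 in GC B cells (interval -0.12 to 0.23).

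Irf3 encodes the constitutively made factor downstream of cytosolic nucleic acid sensors (NM_016849, mm10 chr7:44997648-45002848, plus strand). Its naive values were 516, 514 and 553 RPKM in WT and 486, 523 and 558 RPKM in B-KO. Its GC values were 437, 458 and 440 RPKM in WT and 459, 424 and 448 RPKM in B-KO. Genotypes overlapped in both cell types, and every GC library lay below every naive library. The change from naive to GC B cells was -0.25 in WT (SE 0.06, limma adjusted p = 0.00583) and -0.23 in B-KO (SE 0.06, adjusted p = 0.00871) on the log2 scale. Without the 3 libraries with Y-linked transcripts the B-KO change was -0.22 and not called (adjusted p = 0.073). In GC B cells the genotype difference was 0.00 with an interval of -0.14 to 0.14. The opposite-strand gene Bcl2l12 overlaps 88 exonic bases of Irf3.

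Irf5 encodes a factor that acts downstream of Toll-like receptors (NM_012057, mm10 chr6:29526625-29537320, plus strand). It stood at 867, 927 and 868 RPKM in WT naive and 722, 822 and 877 RPKM in B-KO naive libraries. In GC libraries it stood at 756, 728 and 839 RPKM in WT and 842, 714 and 671 RPKM in B-KO. The WT GC values lay just below the WT naive values, and the B-KO groups overlapped. Irf5 was not called between GC and naive B cells in WT (log2 -0.20, interval -0.42 to 0.02, limma adjusted p = 0.104) or in B-KO (log2 -0.12, adjusted p = 0.31). It was called in WT with quantile normalization (adjusted p = 0.0186), array quality weights (adjusted p = 0.0171), the Y-linked covariate (adjusted p = 0.0197) and without the 3 libraries with Y-linked transcripts (adjusted p = 0.0288). Between genotypes it differed by -0.14 in naive and -0.07 in GC B cells, both with intervals across 0.

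Irf7 encodes the interferon-inducible factor that amplifies type I interferon production (NM_001252601, mm10 chr7:141263183-141266424, minus strand). It varied most among the 9 genes. In naive B cells it measured 216, 260 and 211 RPKM in WT and 145, 168 and 298 RPKM in B-KO. In GC B cells it measured 99.9, 114 and 198 RPKM in WT and 227, 269 and 151 RPKM in B-KO. Of the B-KO naive libraries, replicates 1 and 2 lay below and replicate 3 above all WT values, and in GC B cells the genotypes overlapped through the highest WT and the lowest B-KO library. In WT it fell 1.73-fold from naive to GC B cells (log2 -0.79, SE 0.31), a call close to the threshold (limma adjusted p = 0.045). That call was lost without WT naive replicate 1, 2 or 3 (adjusted p of 0.0776, 0.126 and 0.0699), without WT GC replicate 1 or 2 (0.159 and 0.126), and without B-KO naive replicate 2 or B-KO GC replicate 1 (0.0552 and 0.0568). In B-KO the change was 0.11 (interval -0.58 to 0.80), which became -0.42 with the Y-linked covariate and -0.36 without the 3 libraries with Y-linked transcripts, neither called. B-KO against WT gave 0.67 in GC B cells (SE 0.31, interval -0.02 to 1.36, adjusted p = 0.883) and -0.23 in naive B cells (SE 0.31, adjusted p = 1).

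Stat3 encodes the transducer of interleukins 6, 10 and 21, the last of which is a T cell signal to GC B cells (NM_011486, mm10 chr11:100886810-100939511, minus strand). Its naive levels were 306, 339 and 290.1 RPKM in WT and 456, 376 and 329.8 RPKM in B-KO. Its GC levels were 332, 322 and 399.9 RPKM in WT and 334, 437 and 364 RPKM in B-KO. All 4 groups overlapped, with the highest value in B-KO naive replicate 1, the naive library of highest GC marker sum. The naive difference between genotypes was 0.30 (interval 0.00 to 0.60, limma adjusted p = 1), and it was 0.18 without that library. GC against naive gave 0.17 in WT (adjusted p = 0.304) and -0.03 in B-KO (adjusted p = 0.862).

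Socs1 encodes the inhibitor that binds JAK kinases and ends their signal (NM_009896, mm10 chr16:10783809-10785536, minus strand). It was the lowest of the 9 genes, with 40.5, 44.5 and 41.8 RPKM in WT naive and 76.8, 53.3 and 47.7 RPKM in B-KO naive libraries. It reached 75.8, 94.7 and 105 RPKM in WT GC and 97.1, 121 and 119 RPKM in B-KO GC libraries. It moved opposite to the other called members, with every GC library above the naive libraries of the same genotype. Socs1 rose 2.13-fold in WT (log2 1.09, SE 0.17, limma adjusted p = 0.000267) and 1.91-fold in B-KO (log2 0.94, SE 0.17, adjusted p = 0.000915). In naive B cells all B-KO libraries exceeded all WT libraries (log2 0.45, interval 0.07 to 0.83), but this did not pass adjustment (limma adjusted p = 1). Without B-KO naive replicate 1 the difference was 0.25. The part of the higher GC marker sum of that library in the Socs1 value was not tested.

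Loss of miR-146a was then read over the 9 genes together. By limma, 0 of the 9 passed adjustment in either cell type or over both, and 0 showed a genotype effect that differed between the cell types. Of all genes tested 0.0146%, 0.0073% and 0.0219% were called in the 3 genotype comparisons and 0.0219% in the test of the difference, so that few genes of any kind were called. At an unadjusted p under 0.05 there were 2 members in naive B cells (Stat3, Socs1), 2 in GC B cells (Irf1, Irf9), 3 over both (Irf1, Irf9, Socs1) and 2 in the test of the difference (Irf1, Irf9). The shares of all genes at that p were 4.55%, 5.66%, 6% and 3.37%. limma voom on the reads recovered from RPKM also called 0 members in each. The 3 libraries of each genotype did not overlap for 1 member in naive B cells and 2 in GC B cells, against 9.38% and 9.29% of all genes. The median log2 difference of the 9 genes was -0.02 for naive cells and 0.10 for GC cells, beside 0.02 and 0.03 over all genes.

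**Figure D3:**
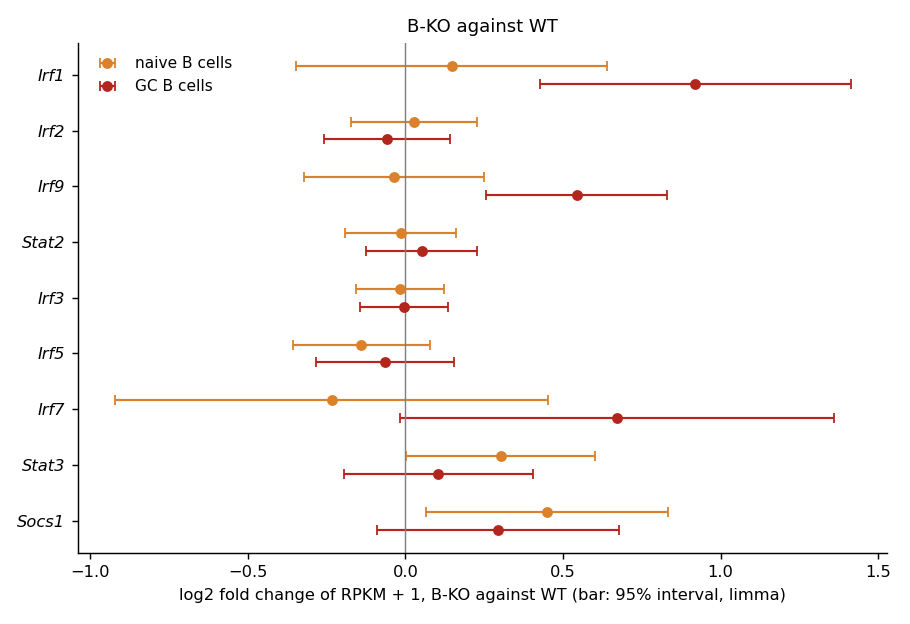
Log2 fold change of RPKM + 1 in B-KO against WT (x axis) for the 9 genes (y axis) in naive and GC B cells; points are limma estimates and bars their 95% intervals, unadjusted. The intervals of Irf1 (0.43 to 1.41) and Irf9 (0.26 to 0.83) in GC B cells and of Stat3 and Socs1 in naive B cells lay above 0, and no gene passed adjustment. Each interval rests on a spread pooled over the 4 groups.

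The test of the difference between cell types gave 0.77 for Irf1 (SE 0.32), 0.58 for Irf9 (SE 0.18) and 0.91 for Irf7 (SE 0.44) on the log2 scale, each with a limma adjusted p of 1. The lower log2 change of these 3 genes from naive to GC B cells in WT than in B-KO is the same difference seen from the other side. Leaving out each library in turn kept the GC genotype difference between 0.67 and 1.14 for Irf1, between 0.40 and 0.66 for Irf9 and between 0.48 and 0.97 for Irf7.

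Because 2 of the 3 B-KO GC libraries and 1 of the 3 WT GC libraries held Y-linked transcripts, the GC values were also read within each kind. Among libraries with them, B-KO replicates 1 and 2 averaged 643 RPKM of Irf1 against 392 RPKM in WT replicate 3 (log2 difference 0.68), and among those without, B-KO replicate 3 had 412 RPKM against a WT mean of 247 RPKM (0.74). Irf9 differed by 0.54 and 0.36, and Irf7 by 0.32 and 0.49, in the same order. For these 3 genes each B-KO library lay above each WT library of its kind. With 1 or 2 libraries a side these are values with no test. Socs1 differed by 0.04 with and 0.48 without Y-linked transcripts, and Irf2 by -0.22 and 0.07. The 3 libraries with Y-linked transcripts also held the highest macrophage and naive B cell marker sums, as given above, and Irf1 and Irf9 were higher in naive B cells. Among the libraries without Y-linked transcripts, the naive marker sum of B-KO replicate 3 (1551 RPKM) lay below those of WT replicates 1 and 2 (1667 and 1566 RPKM). The single markers were split. In B-KO replicate 3 Cr2 was lower (486 against 643 and 623 RPKM), and Fcer2a lay between the WT values. Ccr7 (73.6 against 53.9 and 62.45 RPKM) and Klf2 (110 against 76.6 and 79.4 RPKM) were higher there. So was the macrophage and myeloid marker sum (207 against 167 and 155 RPKM). The immediate early sums of WT replicate 3 and B-KO replicates 1 and 2 were 5163, 1636 and 4976 RPKM, against 654 to 712 RPKM in the other GC libraries. The part of naive B cells, of macrophages and of this difference in the levels of Irf1, Irf7 and Irf9 over all GC libraries was not tested.

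**Figure D4:**
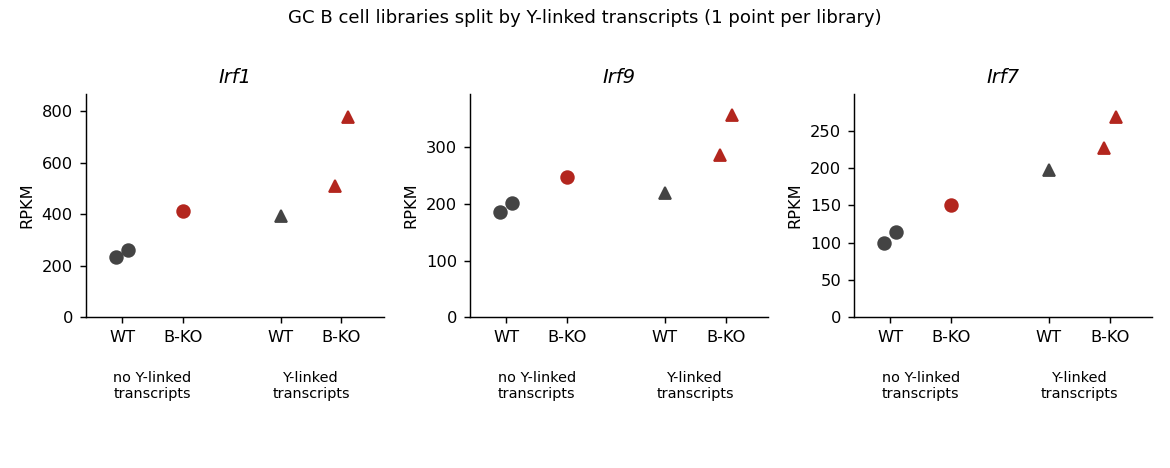
RPKM of Irf1, Irf9 and Irf7 (y axis, from 0) in the 6 GC B cell libraries, split by whether the library held Y-linked transcripts (circles without, triangles with) and by genotype (x axis). In each kind of library the B-KO points lie above the WT points, and the libraries with Y-linked transcripts are higher within each genotype.

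The partners of the 9 genes were described by lists of pathway genes. Over all genes 30.2% were called lower and 31.7% higher in WT, and 27.5% and 30% in B-KO. Lists of 4 or 5 genes are too small to set their counts against these shares. Of 9 interferon receptor chains and JAK kinases, 7 fell and 1 rose from naive to GC B cells in both WT and B-KO. The riser was Ifnlr1, a chain of the interferon lambda receptor (log2 2.03 in WT and 1.37 in B-KO). Ifnar1 and Ifnar2, the type I receptor chains, fell in WT from 195 to 69.0 RPKM and from 152 to 46.4 RPKM (limma adjusted p = 7.67e-05 and 1.52e-05). Ifngr2, a chain of the interferon gamma receptor, went from 342 to 126 RPKM in WT, and Il10rb, shared by interleukin 10 and interferon lambda receptors, from 392 to 89.9 RPKM. Of 5 receptor chains that signal to STAT3, 4 fell in WT and 3 in B-KO. Il10ra went from 733 to 171 RPKM in WT, while Il21r stood at 830 RPKM in WT naive and 998 RPKM in WT GC B cells. Of 4 other STAT genes, Stat4 and Stat6 fell in both genotypes, Stat4 from 279.5 to 29.5 RPKM in WT, and Stat5b rose in WT (log2 0.24, adjusted p = 0.00713) and was not called in B-KO (log2 0.14, adjusted p = 0.0897), with no call for the difference between genotypes. Of 4 genes of other IRF factors and IRF2 binding proteins, Irf2bpl fell (-2.38 in WT and -2.03 in B-KO) and Irf2bp1 rose (0.41 and 0.28).

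Of 16 feedback inhibitors of JAK and STAT signaling other than Socs1, 2 rose and 5 fell in each genotype, and the share that fell was near that of all genes called lower (30.2% in WT and 27.5% in B-KO). Socs5 fell from 89.1 to 16.6 RPKM in WT, Pias3, an inhibitor of STAT3, fell from 105 to 58.7 RPKM, and Ptpn2, a phosphatase of JAK and STAT proteins, rose from 192 to 272 RPKM. Usp18, an interferon-induced inhibitor of the type I receptor, fell in WT by 1.83 (limma adjusted p = 0.000713), from 69.1 to 19.3 RPKM. In B-KO it had a log2 change of -0.28 (60.3 and 48.9 RPKM), with no call for the difference between genotypes. Of 20 sensors, adaptors and kinases upstream of IRF3, IRF5 and IRF7, 15 fell and 1 rose in WT, and 11 fell and 2 rose in B-KO. Tlr7 went from 240 to 30.3 RPKM in WT and from 230 to 52.3 RPKM in B-KO. Tmem173, the gene of STING, had log2 changes of -1.27 and -1.06.

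Target genes were read next, beside 30.2% of all genes called lower and 31.7% called higher in WT, and 27.5% and 30% in B-KO. Of 26 ISRE genes, 25 fell and 0 rose in GC against naive B cells in WT, and 18 fell and 0 rose in B-KO, with median log2 changes of -2.07 and -1.06. Parp14 went from 303 to 144 RPKM in WT and from 295 to 183 RPKM in B-KO, and Trim30a from 525 to 169 and from 485 to 245 RPKM. Of 18 tested targets of interferon gamma and IRF1, 11 fell and 3 rose in WT, and 9 fell and 3 rose in B-KO. Gbp5 had log2 changes of -2.78 and -2.21 in WT and B-KO, and Irgm2 of -1.68 and -1.29. Of 10 STAT3 targets 3 rose and 3 fell in WT, near the shares of all genes, and 2 rose and 4 fell in B-KO. Pim1 and Bcl6, with Bcl6 itself a marker of GC B cells, were among the risers in both genotypes (Pim1 2.15 and 1.84, Bcl6 1.87 and 1.80). Ccnd1 fell in both genotypes (-1.28 and -1.07), Mcl1 in WT (-0.53) and Bcl3 in B-KO (-0.68). Of 9 interferon genes listed, only Ifng reached the level for testing, with group means of 1.11 to 2.31 RPKM, and it was not called.

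Between genotypes, 0 genes of any of these lists passed adjustment in limma in naive or GC B cells. The same held in the test of the difference, so no change from naive to GC B cells was called as differing between genotypes. All 26 ISRE genes had a positive B-KO against WT difference in GC B cells, with a median of 0.79 beside 0.03 over all genes, and 20 had an unadjusted p under 0.05. Over all genes 58.5% were positive in GC B cells and 5.66% had such a p. The genes of a list share a pathway and were read in the same libraries, so such counts are not counts of independent observations. In naive B cells 6 of the 26 were positive and the median was -0.12. Summed over the list, GC libraries held 1195, 1284 and 1608 RPKM in WT and 2011, 2332 and 1522 RPKM in B-KO, so that WT replicate 3 exceeded B-KO replicate 3. The smallest p values in GC B cells belonged to Eif2ak2, the kinase PKR (67.2 against 94.3 RPKM, log2 0.47), Zbp1, a nucleic acid sensor (120 against 217 RPKM, 0.83), Parp14 (0.34) and Isg15, a ubiquitin-like modifier (33.6 against 70.0 RPKM), with limma adjusted p from 0.517 to 0.692. Usp18 was higher by 1.28 (19.3 against 48.9 RPKM, limma adjusted p = 0.538).

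Of the 18 interferon gamma and IRF1 targets, 17 were positive in GC B cells with a median of 0.54 and 14 had an unadjusted p under 0.05. All 18 were positive in naive B cells, with a median of 0.17 and 4 at that p, beside 56.6% positive and 4.55% at that p over all genes. Igtp and Irgm2, immunity-related GTPases, differed in GC B cells by 0.97 (53.9 against 107 RPKM, limma adjusted p = 0.163) and 0.64 (34.3 against 53.7 RPKM, adjusted p = 0.185). The chemokine Cxcl10 was low, at 4.20 against 15.6 RPKM in GC libraries and 2.99 against 10.5 RPKM in naive libraries. Psmb8 of the immunoproteasome stood at 1398 against 1651 RPKM in naive B cells (0.24, adjusted p = 0.819). It was higher in WT GC B cells, at 2075 RPKM, whereas 11 of the 18 targets fell there. B-KO naive replicates 1 and 2, with the highest GC marker sums among naive libraries, held 10.7 and 15.5 RPKM of Cxcl10 against 5.18 RPKM in replicate 3. The part of GC B cells in the naive differences of these targets was not tested. Medians of the other lists in GC B cells lay between -0.06 (other STAT genes) and 0.20 (other IRF genes and IRF2 binding proteins). Traf6, an adaptor that miR-146a is known to target, differed by 0.27 in GC B cells (93.7 against 113 RPKM, adjusted p = 0.692) and by 0.0084 in naive B cells (111 against 112 RPKM). Irak1, another known target, differed by 0.13 between naive groups and by 0.19 between GC groups, neither called. The macrophage and naive B cell marker sums differed among the GC libraries as given above, with naive sums of 1667, 1566 and 2463 RPKM in WT and 2014, 2744 and 1551 RPKM in B-KO. Most ISRE genes were lower in GC than in naive B cells. In the same order of libraries the ISRE sums were 1195, 1284 and 1608 RPKM in WT and 2011, 2332 and 1522 RPKM in B-KO. B-KO replicate 3 had the lowest naive and ISRE sums of its group. Its ISRE sum lay above those of WT replicates 1 and 2. Those WT libraries had higher naive sums but lower Ccr7, Klf2 and macrophage marker values, as given above. The part of macrophages, of naive B cells and of the immediate early differences given above in the list values was not tested.

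**Figure D5:**
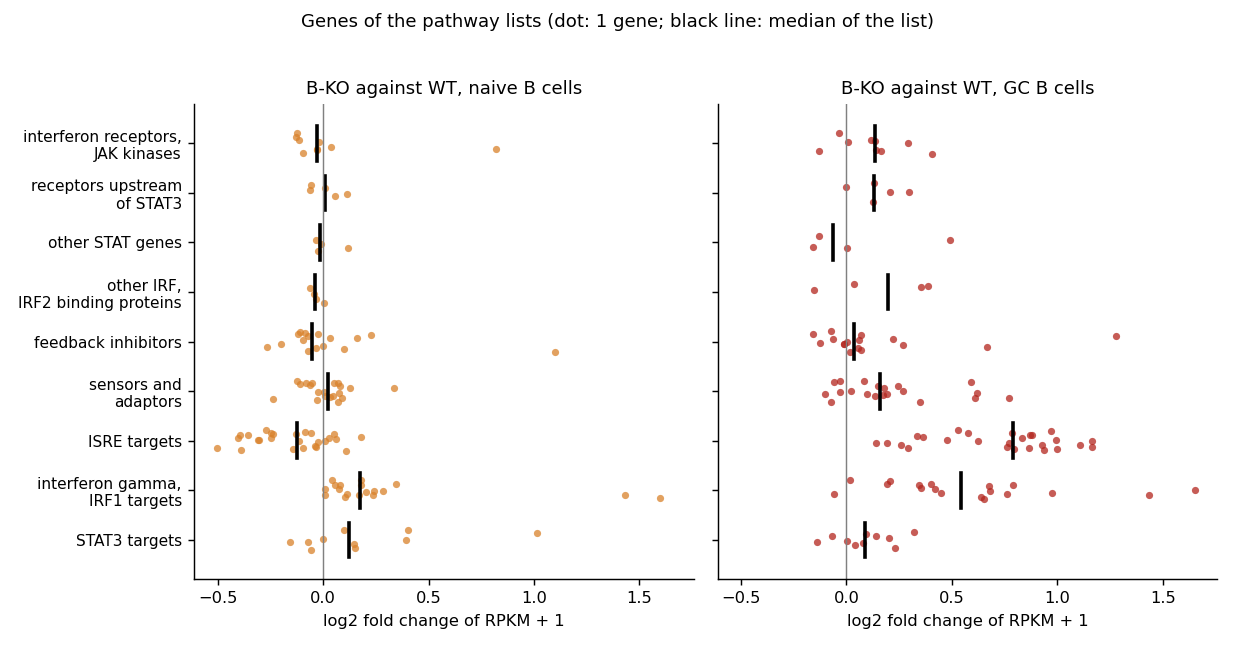
Log2 fold change of RPKM + 1 in B-KO against WT (x axis) for the genes of 9 pathway lists (y axis) in naive and GC B cells; each dot is a gene and the black line is the median of its list. ISRE targets had a median of 0.79 in GC B cells against -0.12 in naive ones, interferon gamma and IRF1 targets had 0.54 against 0.17, and no gene was called.

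Across the 12 libraries some genes followed the members closely (Pearson r of log2(RPKM + 1), among 11411 genes with a mean RPKM of at least 5, as a description in which naive and GC B cells set most of the variation). Irf9 was closest to Parp14 (0.99) and Gimap6 (0.99), and H2-Q7, a class I gene, was among the closest to Irf1 (0.98). Irf2 was closest to Foxk1 (0.98) and Ubr2 (0.97), Irf3 to Mterf2 (0.98) and Kmo (0.98), and Stat2 to Tbc1d25 (0.99) and Fnbp4 (0.99). Socs1 followed Fam73a (0.98) and Hif1a (0.97). Irf5, Irf7 and Stat3 had looser companions, with Hip1r (0.91) and Atp13a2 (0.89), Sertad3 (0.90) and Usp18 (0.90), and Snap23 (0.90) and Ass1 (0.89).

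After subtraction of the group means, Irf7 deviated with Actr5 (0.997) and Rtp4 (0.97), Irf1 with Mtdh (0.98) and Lgals4 (0.98), and Irf9 with Cyb561d1 (0.97) and Prr7 (0.96). Irf2 deviated with LOC101056043 (0.96) and Pus1 (0.95), Irf3 with Ssu72 (0.97) and Acyp1 (0.97), Irf5 with Cblb (0.96) and Tecr (0.94), Stat2 with Sap25 (0.95) and Ambra1 (0.93), Stat3 with Sertad2 (0.98) and Atp8b2 (0.98), and Socs1 with Stim1 (0.96) and Josd1 (0.96). Among the members themselves the deviations of Irf7 and Irf9 went together (0.86), those of Irf1 and Irf9 less so (0.74), and those of Irf3 and Stat3 went opposite ways (-0.87). These values rest on 12 libraries in 4 groups and describe these libraries.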

How the data were processed

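Poly-A RNA of 12 libraries of sorted B cells was analysed, 3 per group, grouped by the labels. The authors trimmed and masked reads, aligned them to mm10 with STAR (2.2.0c per the processing notes, which name mm9 as well as mm10) and counted exonic reads of both strands per RefSeq transcript with HOMER. The deposited values are RPKM scaled by the authors to 10000000 reads per library. Reads recovered from value and length were whole within 0.1 for 100% of values checked and include repeated counting on transcripts of the same gene (37.6%). Recovered reads bear on counting error only.

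For each symbol the transcript of highest mean RPKM was kept. limma 3.58.1 in R 4.3.3 was fitted to log2(RPKM + 1) over all 12 libraries with 4 group means and a trended eBayes, for genes that reached an RPKM of 1 in 3 or more libraries, which leaves 8 residual degrees of freedom. Tests were two-sided, with Benjamini-Hochberg adjustment over 13704 genes at 0.05. The p-values measure the spread between libraries labelled as biological replicates. The pipeline was tested on simulated data with 200 changed genes. The simulation gave all genes the same spread beyond counting error. It held none of the marker differences among GC libraries and does not bear on them.

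The members, lists and tests were chosen with earlier results of these data known. All members were named, with up to 4 genes of a list with the smallest p in a comparison, and for each member the 2 genes most like it by level and by deviation from group means. A gene that this rule names beside Irf1 and a marker each of GC and naive B cells are not reported here. Other genes given for a list are those the rule named in another comparison. Alternatives were other pseudocounts (0.1 and 5), filters, means over transcripts, median-of-ratios and quantile normalization, a replicate block, array quality weights, fits of only the groups compared, limma voom on recovered reads, a Y-linked covariate and leaving out each library. Leaving out the 3 libraries with Y-linked transcripts was added after seeing the data. Sequences came from RefSeq tables (GRCm38.p6) and GENCODE M21.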

Additional observations from a re-analysis of the deposited data

How the results depend on the processing

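The 9 genes were recomputed under 25 alternatives, 12 of which leave out a library. Members called between genotypes stayed at 0 under each, and of 1332 recomputed member values 1262 kept their direction and side of the threshold, while 53 changed sign, none of them a called value. The cause of each change was not tested.

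Counts over all genes were small and moved. In naive B cells 2 genes were called, with 6 without a filter, 1 at an RPKM of at least 5, 83 with array quality weights, 0 with limma voom and 5 without the 3 libraries with Y-linked transcripts. Leaving out a library gave 2 to 33, the 33 without B-KO naive replicate 3. In GC B cells 1 was called, with 3 at a pseudocount of 0.1, 6 without a filter, 0 at an RPKM of at least 5, 2 with array weights, 0 with voom, and 1 to 4 without a library. Over both cell types 3 were called, with 1 at a pseudocount of 5, 8 without a filter, 0 at an RPKM of at least 5, 27 with array weights, 0 with voom, 1 with the Y-linked covariate, and 1 to 20 without a library. In the test of the difference 3 were called, with 1 at a pseudocount of 5, 9 without a filter, 0 at an RPKM of at least 5, 0 with voom, 1 with the Y-linked covariate, 1 without the 3 libraries, and 1 to 4 without a library.

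Same-numbered libraries did not deviate together (correlations of -0.57 to 0.15), and the labels do not say that the numbers pair mice. With 3 libraries a group these correlations cannot exclude a pairing, and none was assumed. A replicate block gave 1 call over both cell types and 1 in the test of the difference, and with it Irf7 was not called in WT GC against naive B cells (adjusted p = 0.0564).

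Log2 values that changed sign are given by setting. Array quality weights gave -0.0022 for Irf2 in naive, 0.015 for Irf3 and 0.0058 for Irf5 in GC, 0.0064 for Irf3 over both, and 0.0066 for Socs1 in the difference. The Y-linked covariate gave 0.0018 for Irf3 in GC and -0.42 for Irf7 in B-KO GC against naive B cells. Quantile normalization gave -0.0087 for Irf3 in the difference and -0.0052 for Irf7 in B-KO GC against naive. Median-of-ratios gave -0.0059 for Stat2 over both. Without the 3 libraries with Y-linked transcripts, chosen after seeing the data, Irf2 was 0.072 in GC, 0.049 over both and 0.046 in the difference, Irf3 was 0.0017 in GC, Irf5 -0.0041 and Socs1 0.034 in the difference, and Irf7 -0.36 in B-KO GC against naive.

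Leaving out a library gave, in naive B cells, -0.010 to 0.090 for Irf2, -0.066 to 0.035 for Irf3, -0.12 to 0.067 for Irf9 and -0.080 to 0.039 for Stat2. Within GC B cells it gave -0.11 to 0.027 for Irf2, -0.029 to 0.028 for Irf3, -0.16 to 0.0043 for Irf5, -0.026 to 0.093 for Stat2 and -0.0049 to 0.20 for Stat3. Over both it gave -0.043 to 0.027 for Irf2, -0.035 to 0.015 for Irf3 and -0.021 to 0.045 for Stat2. For the difference it gave -0.15 to 0.00066 for Irf2, -0.039 to 0.062 for Irf3, -0.019 to 0.15 for Irf5, -0.011 to 0.13 for Stat2 and -0.29 to 0.043 for Socs1. For B-KO GC against naive it gave -0.096 to 0.42 for Irf7 and -0.14 to 0.094 for Stat3. Irf5 was called in B-KO GC against naive with quantile normalization (adjusted p = 0.0221) and the Y-linked covariate (adjusted p = 0.0496), and Irf7 was not called in WT without a filter (adjusted p = 0.126).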

Other observations

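The table lists 20 transcripts of the 9 genes, and the 11 not used above show how far a level depends on the transcript model. For 10 of these the value was 91.0% to 101% of the transcript used in each of the 12 libraries. The exception was NM_001159393 of Irf1, at 52.3% to 57.8% of NM_008390 in every library. Irf2 and Stat2 had a single transcript.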
